A study of Rattus norvegicus with 10 samples.

Results

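The sterol and fatty acid synthesis genes are the enzymes that build cholesterol from acetyl-CoA, the enzymes that make, desaturate and elongate fatty acids, and the proteins that regulate both routes or move sterol. A list of 36 genes was matched by gene symbol to the transcript clusters of the array, a transcript cluster being the set of probes that reports 1 gene. Of these, 35 had a transcript cluster, each with 1, among the 23188 measured, and Hmgcs1 was not analysed here. JUG2 is a rat enteric glial cell line, and its derivatives carried lentiviral constructs that express Sox10 or, as a control, GFP from a doxycycline-responsive promoter. Clariom S arrays, 10 in all, covered the SOX10 line without doxycycline (-dox, 4 arrays) and with it (+dox, 4 arrays) and the GFP line in the same conditions (1 array each). Treatment was doxycycline at 1 µg/ml over 48 h, and the -dox cultures were given none. All groups were grown in medium with 10% fetal calf serum and carry a transactivator and a resistance gene, so each line is a selected population under an artificial promoter, and the GFP control has 1 array per condition.

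Cells make cholesterol in the endoplasmic reticulum through mevalonate, squalene and a series of sterol intermediates. When sterol in that membrane is low, SCAP escorts the SREBP transcription factors, encoded by Srebf1 and Srebf2, to the Golgi, where they are cleaved and released to activate genes of both routes, while INSIG proteins hold them back when sterol is plentiful. Glia that build myelin need large amounts of cholesterol and fatty acids, and SOX10 is a transcription factor of the neural crest that drives glial and myelin genes.

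Msmo1, Hsd17b7 and Nsdhl are sterol enzymes that varied between cultures. Abca1 and Lpin1 are the members with the largest differences with doxycycline. The promoters of these 5 members are shown as examples. Each is the run of 250 bases before the annotated start in RefSeq's GRCr8 build, read 5′ to 3′ on the strand of the gene, with CCAAT boxes (CCAAT, or ATTGG on the other strand) and the E-box CACGTG in capitals. Msmo1 lies at chr16:29746863-29747112 on the plus strand, Hsd17b7 at chr13:84722755-84723004 on the minus strand, Nsdhl at chrX:155817110-155817359 on the plus strand, Abca1 at chr5:72596474-72596723 on the minus strand and Lpin1 at chr6:45108943-45109192 on the minus strand.
Msmo1: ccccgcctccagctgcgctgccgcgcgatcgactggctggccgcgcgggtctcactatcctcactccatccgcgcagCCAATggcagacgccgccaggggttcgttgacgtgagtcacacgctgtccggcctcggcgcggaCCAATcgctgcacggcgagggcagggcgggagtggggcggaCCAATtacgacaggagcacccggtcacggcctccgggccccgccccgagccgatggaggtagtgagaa
Hsd17b7: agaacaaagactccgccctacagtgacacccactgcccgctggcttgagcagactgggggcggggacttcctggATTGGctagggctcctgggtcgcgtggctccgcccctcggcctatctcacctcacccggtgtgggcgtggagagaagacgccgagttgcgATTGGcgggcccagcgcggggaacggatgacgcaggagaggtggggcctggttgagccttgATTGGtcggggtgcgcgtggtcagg
Nsdhl: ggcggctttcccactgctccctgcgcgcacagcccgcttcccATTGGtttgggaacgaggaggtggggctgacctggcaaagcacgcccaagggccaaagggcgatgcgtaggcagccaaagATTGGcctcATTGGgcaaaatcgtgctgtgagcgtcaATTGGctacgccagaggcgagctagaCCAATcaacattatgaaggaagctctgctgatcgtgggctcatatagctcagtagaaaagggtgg
Abca1: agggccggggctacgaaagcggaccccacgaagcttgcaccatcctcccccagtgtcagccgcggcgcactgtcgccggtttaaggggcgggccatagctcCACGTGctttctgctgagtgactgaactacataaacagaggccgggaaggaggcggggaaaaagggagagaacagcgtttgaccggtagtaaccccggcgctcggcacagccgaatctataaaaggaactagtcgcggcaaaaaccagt
Lpin1: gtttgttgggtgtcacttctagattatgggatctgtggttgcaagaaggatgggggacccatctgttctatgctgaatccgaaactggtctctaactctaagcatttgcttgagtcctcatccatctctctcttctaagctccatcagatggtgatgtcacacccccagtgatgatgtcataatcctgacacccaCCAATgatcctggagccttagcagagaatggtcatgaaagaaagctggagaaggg
The CCAAT box, which NF-Y binds next to SREBPs in many sterol genes, was found 3 times in Msmo1, 3 times in Hsd17b7, 5 times in Nsdhl, 1 time in Lpin1 and not in Abca1, whose window held 1 E-box. RefSeq's table gave a promoter for 28 of the 35 members.

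Over the window that also takes in the first 50 bases after the start, on both strands, CCAAT was present in 19 of 28 member promoters (67.9%) and in 37.7% of all 27457 promoters. Among members lower on both replicate 4 arrays, described below, it was present in 11 of 14 (78.6%). Among the other members it was present in 8 of 14 (57.1%). Dhcr7, Cyp51 and Scd had the replicate 4 pattern but no CCAAT. The 3 sterol enzymes shown above held more CCAAT boxes than other members with that pattern. Mvk, a member without that pattern, held as many as Nsdhl and more than Msmo1 and Hsd17b7. CACGTG was present in 5 of 28 (17.9%) and in 6.65% of all. ACAAAG, a core motif that SOX proteins bind, was present in 3 of 28 (10.7%) and in 18.3% of all. The sterol element searched as TCACNCCAC was in 0 of 28 members and in 1.13% of all, and the direct repeat of AGGTCA with a spacer of 4 bases, a form bound by liver X receptors, was in 0 of 28 and in 0.00364% of all. These matches describe letters in a short window and were not tested.

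The deposited values are log2 signals, whose scale and summarization are given only in part. Array medians lay between 6.69 and 6.86, and precision is set by how few arrays there are. The range between the quartiles ran from 4.42 (GFP +dox) to 4.95 (SOX10 -dox replicate 1). It was 4.68 and 4.51 on replicate 4 of SOX10 -dox and +dox. In replicate 1, Sox10 itself was opposite to the labels: it was 12.90 on the array labelled SOX10 -dox and 6.74 on that labelled SOX10 +dox, against 6.11 to 6.43 and 12.62 to 13.02 on replicates 2 to 4 and 5.70 and 6.20 on the GFP arrays. The main comparison therefore used replicates 2 to 4 (n = 3 per group), and replicate 1 is given apart. Of the enteric glial markers, 4 of 7 (S100b, Nes, Ngfr and Erbb3) were called higher with doxycycline, and Gfap lay between 5.44 and 6.30 on all 10 arrays. In these bulk cultures, fewer cells of a kind and less RNA per cell cannot be told apart.

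**Figure D1:**
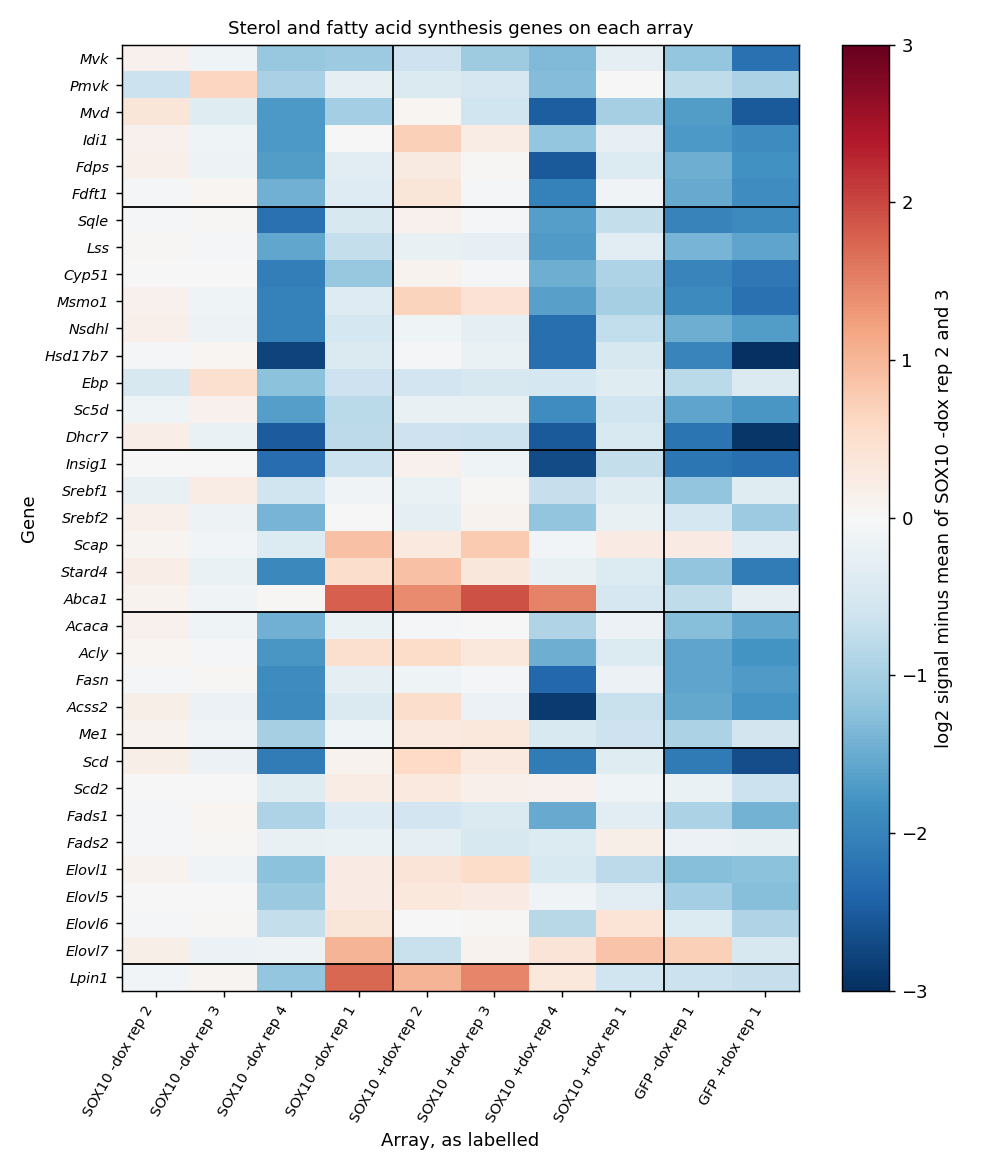
Level of each member on each array relative to SOX10 -dox replicates 2 and 3 (log2, colour scale), with genes in rows by role and arrays in columns. The replicate 4 arrays of both SOX10 groups and the 2 GFP arrays are lower than the others for most sterol enzymes.

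In the main fit, which did not pair arrays by replicate number, Abca1 was called higher with doxycycline. The other members did not pass the test there, but Lpin1 passed with the replicate number as a block, as described below. A call needed an adjusted p under 0.05 (limma, Benjamini-Hochberg over all 23188 transcript clusters) and a difference of at least 2-fold. It was met by 1 of 35 members in the higher direction (2.86%), against 2.26% of all transcript clusters, and by 0 members in the lower direction, against 1.24%, so the share of members was near the background. At an unadjusted p under 0.05, 2 members, Abca1 and Lpin1, were higher and 0 were lower, against 7.23% and 7.55% of all transcript clusters. The median log2 difference of the 35 members was -0.01, and that of all transcript clusters was -0.02. The median of the members moved with single arrays, from -0.45 without SOX10 -dox replicate 4 to 0.63 without SOX10 +dox replicate 4. Standard errors of the members ran from 0.21 to 0.77, and from 0.19 to 0.29 with the replicate number as a block.

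**Figure D2:**
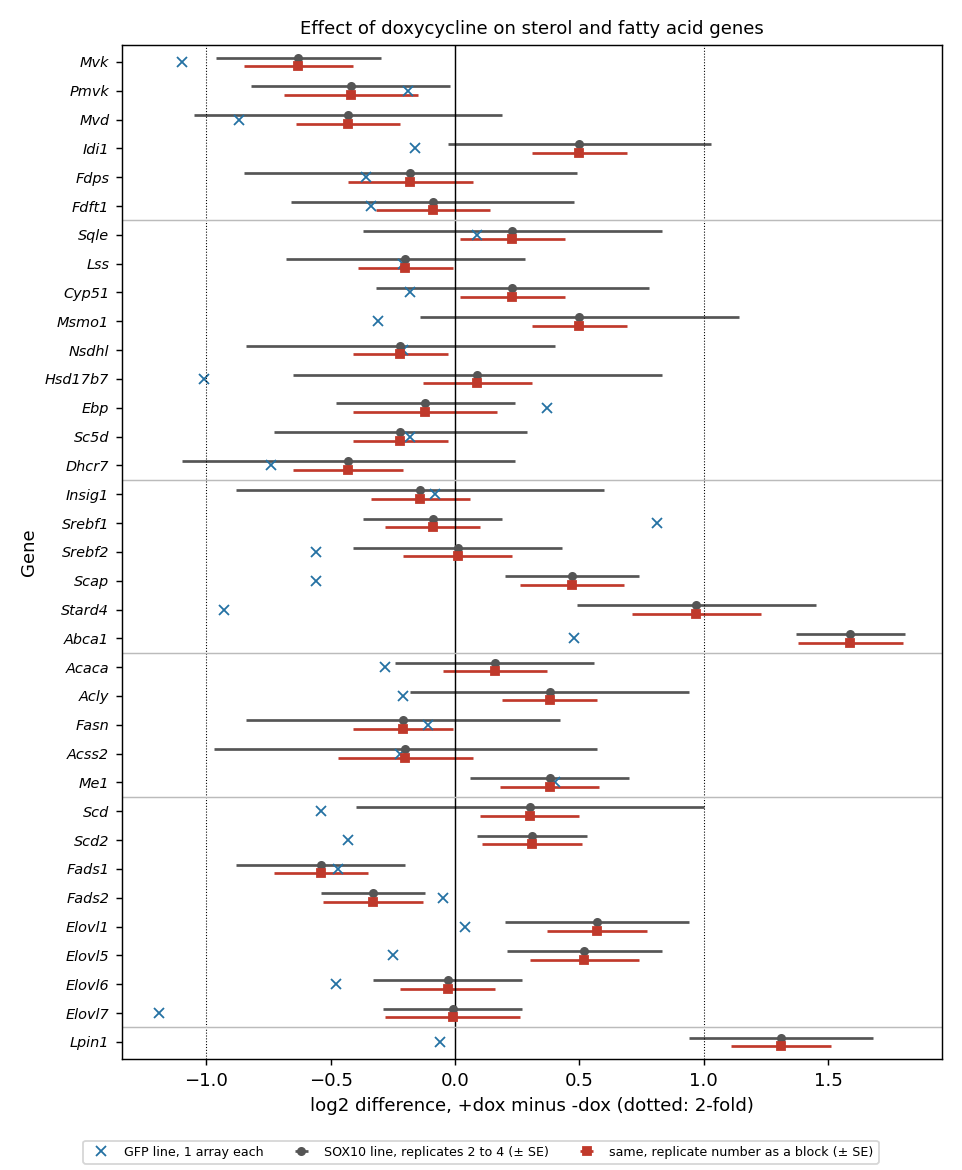
log2 difference with doxycycline for each member. Grey points are the SOX10 line (replicates 2 to 4, ± SE), red squares the same with the replicate number as a block, and blue crosses the GFP line (1 array each, no error). Abca1 stands at 1.59 and Lpin1 at 1.31, beyond the dotted line of 2-fold.

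Abca1, which exports cholesterol to apolipoproteins, lay at 7.19, 7.0 and 7.12 on SOX10 -dox replicates 2 to 4 and at 8.51, 9.0 and 8.59 on the same replicates with doxycycline. All 3 treated arrays were above all 3 untreated ones. Its mean rose from 7.10 ± 0.10 to 8.70 ± 0.26 (SD, n = 3), a log2 difference of 1.59 ± 0.22 (SE), or 3.02-fold (limma adjusted p = 0.00222). Replicate 1, whose Sox10 was opposite to its labels, had 8.88 on the array labelled -dox and 6.60 on that labelled +dox, and the GFP arrays had 6.34 without and 6.82 with doxycycline. The difference between the effects of the SOX10 and GFP lines was 1.12 ± 0.45 (limma adjusted p = 0.481), so the response was not shown to differ from that of the GFP control. With all 8 SOX10 arrays as labelled, the log2 difference was 0.63 (adjusted p = 0.973), and 0 members reached an unadjusted p under 0.05 (1.93% of all transcript clusters were higher and 1.79% lower).

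Lpin1, a phosphatidic acid phosphatase that makes diacylglycerol for glycerolipids, lay at 9.95, 10.10 and 8.87 without doxycycline and at 11.04, 11.49 and 10.33 with it. The groups did not overlap, and replicate 4 was the lowest of each. The log2 difference was 1.31 ± 0.37 and did not pass the threshold (limma adjusted p = 0.0856). With the replicate number as a block it was 1.31 ± 0.20 and passed (adjusted p = 0.00453), which took the members called higher from 1 to 2 of 35, against 2.75% of all transcript clusters, with 0 called lower (1.62%). At an unadjusted p under 0.05 the block gave 7 members higher and 2 lower (Mvk and Fads1), against 9.29% and 10.4% of all transcript clusters. Within replicates 2, 3 and 4 the differences were 1.09, 1.39 and 1.46. Replicate 1 had 11.75 on the array labelled -dox and 9.43 on that labelled +dox, and the GFP arrays had 9.39 and 9.33.

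**Figure D3:**
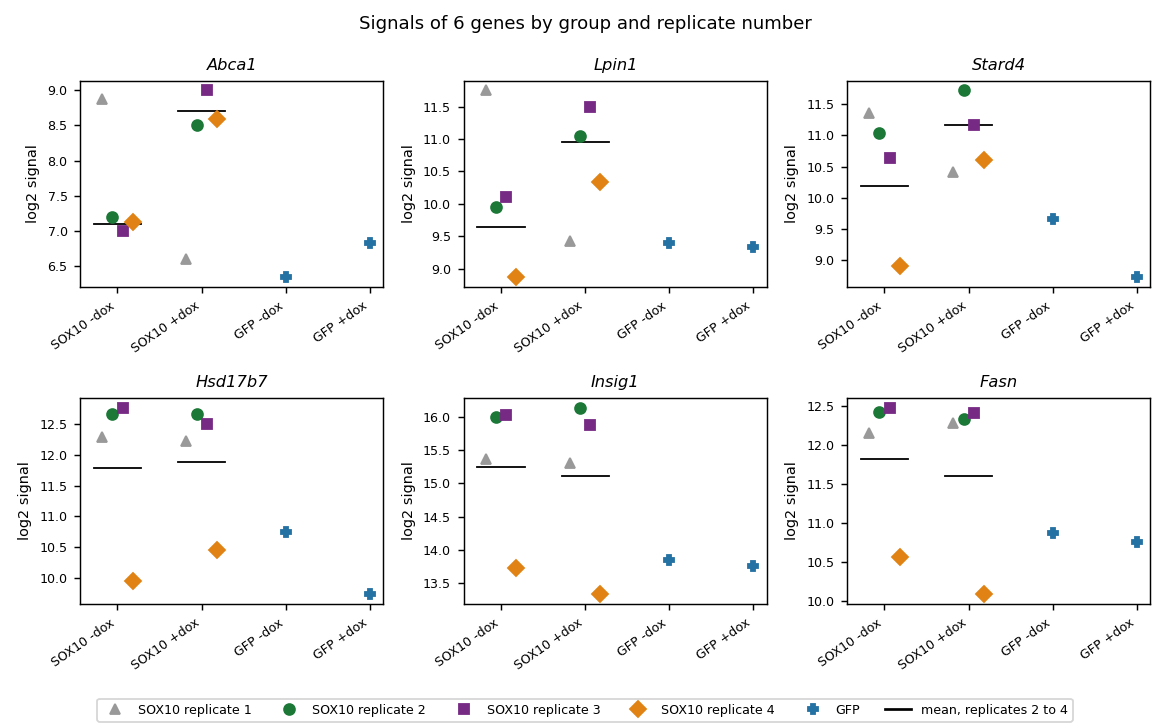
log2 signal on each array of 6 members, by group, with replicate numbers marked and group means of replicates 2 to 4. Abca1 and Lpin1 separate by doxycycline, while the sterol genes separate by replicate number.

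Among the other regulators and carriers, Stard4, a soluble sterol carrier, lay at 11.03, 10.64 and 8.91 without doxycycline and at 11.72, 11.17 and 10.61 with it. The groups overlapped, and the lowest array was replicate 4 without doxycycline. Its log2 difference was 0.97 ± 0.48 (limma adjusted p = 0.397), and 0.97 ± 0.26 with the replicate block (adjusted p = 0.0581), while the GFP line differed by -0.93. Scap lay at 7.48, 7.30 and 6.97 without doxycycline and at 7.69, 8.18 and 7.30 with it, overlapping groups with a difference of 0.47 ± 0.27 (adjusted p = 0.47). Srebf1 differed by -0.09 ± 0.28, Srebf2 by 0.01 ± 0.42 and Insig1 by -0.14 ± 0.74, and none passed the test.

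None of the 6 mevalonate and squalene enzymes was called. Mvk, mevalonate kinase, lay at 9.55, 9.29 and 8.29 without doxycycline and at 8.81, 8.36 and 8.09 with it, with overlapping groups and a log2 difference of -0.63 ± 0.33 (limma adjusted p = 0.434). Idi1, which isomerises isopentenyl diphosphate, lay at 13.94, 13.66 and 12.08 and then at 14.52, 14.03 and 12.64, a difference of 0.50 ± 0.53 (adjusted p = 0.746). Pmvk, phosphomevalonate kinase, lay at 8.09, 9.38 and 7.77 and then at 8.31, 8.23 and 7.43, a difference of -0.42 ± 0.40. In both kinases and in Idi1, the replicate 4 array was the lowest of its group. Mvd, Fdps and Fdft1 differed by -0.43, -0.18 and -0.09.

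None of the 9 enzymes after squalene was called either, and their differences ran from -0.43 (Dhcr7) to 0.50 (Msmo1). Msmo1, which removes methyl groups from sterol, lay at 14.94, 14.70 and 12.79 without doxycycline and at 15.48, 15.26 and 13.18 with it (0.50 ± 0.64, limma adjusted p = 0.801). Dhcr7, the last reductase of one branch, lay at 11.85, 11.45 and 9.16 and then at 11.04, 11.01 and 9.13 (-0.43 ± 0.67, adjusted p = 0.845). Sc5d, a sterol desaturase, lay at 15.29, 15.54 and 13.77 and then at 15.20, 15.19 and 13.54 (-0.22 ± 0.51, adjusted p = 0.904). In each of these the gap between replicate 4 and the other replicates was larger than the gap between doxycycline groups.

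Of the fatty acid synthesis genes, Me1, a source of NADPH, lay at 10.93, 10.70 and 9.82 without doxycycline and at 11.10, 11.12 and 10.36 with it (0.38 ± 0.32, limma adjusted p = 0.675). Acly, which makes cytosolic acetyl-CoA, lay at 14.60, 14.48 and 12.79 and then at 15.10, 14.85 and 13.07 (0.38 ± 0.56, adjusted p = 0.832). Acaca, acetyl-CoA carboxylase, lay at 11.96, 11.70 and 10.40 and then at 11.77, 11.84 and 10.92 (0.16 ± 0.40, adjusted p = 0.913). The groups of all 3 overlapped, and Fasn and Acss2 differed by -0.21 and -0.20.

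Of the desaturases and elongases, Fads1 and Fads2, which desaturate polyunsaturated fatty acids, differed by -0.54 ± 0.34 and -0.33 ± 0.21 (limma adjusted p = 0.536 and 0.54). Fads1 lay at 15.80, 15.94 and 14.95 without doxycycline and at 15.30, 15.43 and 14.35 with it, and Fads2 lay at 17.19, 17.27 and 17.00 and then at 16.93, 16.75 and 16.81. The groups of Fads2 did not overlap, but those of Fads1 did. Elovl5, an elongase of polyunsaturated fatty acids, lay at 15.91, 15.93 and 14.80 and then at 16.23, 16.16 and 15.82 (0.52 ± 0.31, adjusted p = 0.498). Scd2 lay between 18.77 and 19.70 on the 10 arrays, close to the highest signal of an array (19.51 to 19.93), so its range may be limited from above, and Scd and Scd2 are similar in sequence, so their signals are uncertain. In all, 3 members had groups that did not overlap with +dox higher (Abca1, Scd2 and Lpin1), against 9.5% of all transcript clusters, and 1 with +dox lower (Fads2), against 10.5%.

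Most members varied far more with the culture than with doxycycline. On SOX10 -dox replicate 4, 23 of 35 members lay at least 2-fold below both replicate 2 and replicate 3, against 1.52% of all transcript clusters and 3.33% of the brightest 25%, and 0 lay as far above (0.992%). On SOX10 +dox replicate 4 it was 17 of 35, against 1.95% and 4.26%, and 0 lay as far above (1.47%). The same 17 members (48.6%) were lower in both groups, against 0.444% of all transcript clusters and 1.28% of the brightest 25%, which holds 26 of the 35 members. Of those 26, 15 (57.7%) were lower in both. These counts describe a split between cultures seen in the values, and no test was applied to them. The median member difference of replicate 4 from the mean of replicates 2 and 3 was -1.45 without and -1.09 with doxycycline. For all transcript clusters it was 0.01 and 0.03, and for the brightest 25% it was -0.13 and -0.17. After quantile normalization the member medians were -1.37 and -0.91, and 22 and 17 of 35 members lay at least 2-fold lower.

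By role, 4 of 6 mevalonate and squalene genes and 8 of 9 enzymes after squalene were lower on both replicate 4 arrays, with Ebp, a sterol isomerase, as the exception among the latter. Srebf2 differed by -1.40 and -1.09 (log2) from the mean of the other replicates but was not 2-fold below each of them with doxycycline. Insig1 was the only one of 6 regulators and carriers, and Acly, Fasn and Acss2 were 3 of 5 fatty acid synthesis genes. Among 8 desaturases and elongases it was Scd, the stearoyl-CoA desaturase. Hsd17b7, a reductase of sterol synthesis, had the largest fall without doxycycline: it lay at 12.67 and 12.77 on replicates 2 and 3 and at 9.94 on replicate 4, 6.89-fold below their mean, and with doxycycline at 12.67, 12.51 and 10.45. Acss2, which makes acetyl-CoA from acetate, had the largest fall with doxycycline, from 11.60 and 10.89 to 8.19. Abca1 did not share the pattern, with differences of 0.03 and -0.16 between replicate 4 and the other replicates.

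**Figure D4:**
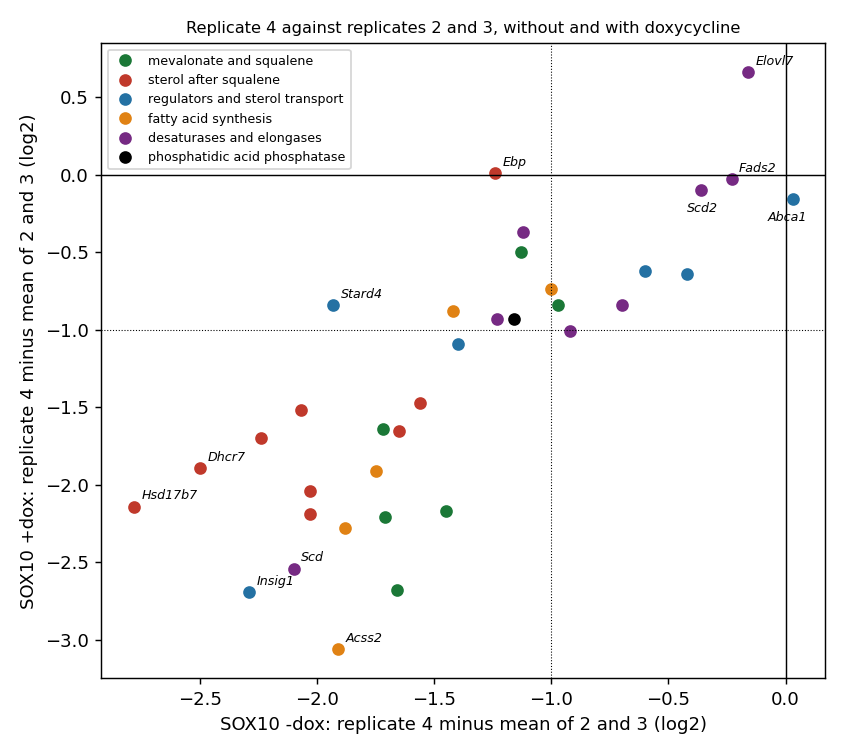
Difference of replicate 4 from the mean of replicates 2 and 3 (log2) for each member, without doxycycline on one axis and with it on the other. Most sterol enzymes lie beyond -1 on both axes, and Abca1 and Fads2 lie near 0.

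The GFP arrays sat with replicate 4. The same 17 members were also at least 2-fold below SOX10 -dox replicates 2 and 3 on both GFP arrays, against 0.254% of all transcript clusters and 0.863% of the brightest 25%. SOX10 -dox replicates 2 and 3 were also the reference for SOX10 -dox replicate 4, so these counts are not independent. Of the 103 transcript clusters lower on both replicate 4 arrays, 59 were also lower on both GFP arrays. On GFP -dox, 21 of 35 members were lower (1.26% of all transcript clusters), and on GFP +dox 23 of 35 (3.06%). After quantile normalization these counts were 20 and 21. Between GFP -dox and SOX10 -dox replicate 4, 0 of 35 members differed by 2-fold in either direction (1.09% of all transcript clusters were lower and 0.966% higher), and the median member difference was 0.15. Replicate 4 was the nearest SOX10 -dox array to GFP -dox for 29 of 35 members and for 44.4% of all transcript clusters. The replicate 1 arrays of the SOX10 line were nearer to replicates 2 and 3 than replicate 4 was. On the array labelled -dox, 1 member was at least 2-fold lower and 2 were higher than SOX10 -dox replicates 2 and 3 (2.67% and 3.59% of all transcript clusters), and on that labelled +dox 0 were lower or higher (0.828% and 0.643%). Smaller differences remained, and the median member difference was -0.29 and -0.38 on these arrays. On the one labelled +dox, 29 of 35 members lay below both SOX10 -dox replicate 2 and replicate 3. On the one labelled -dox, 20 did. The median of the enzymes after squalene was -0.61 on both arrays, against -2.03 on SOX10 -dox replicate 4. Whether these arrays share a passage, lot or day was not tested.

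Some other values moved with the same arrays. The mean log2 signal of 5 smooth muscle markers stood at 9.51, 9.52 and 10.16 in replicates 2, 3 and 4 of the untreated SOX10 line, at 8.97, 8.97 and 9.67 with doxycycline, and 10.06 and 9.99 on the GFP arrays, with Acta2 and Tagln high on every array and Myh11 between 4.95 and 5.97. With doxycycline, Tagln differed by -1.04 (limma adjusted p = 0.188), and the replicate block called it lower (adjusted p = 0.0127). The 5 markers did not all move with replicate 4. Among replicates 2 to 4, Acta2, Tagln and Cnn1 were highest on replicate 4 in both SOX10 groups. Myh11 was not, at 5.62, 5.20 and 5.38 without doxycycline, and Des was not, at 6.37, 6.08 and 5.99 with it. The part of these markers in the members' pattern was not tested. Of 40 other measured genes of sterol and fatty acid metabolism, 5 (Acat2, Tm7sf2, Tmem97, Acsl3 and Fads3) were lower on both replicate 4 arrays, and of 21 fatty acid oxidation genes, 0 were. Neither list had a called gene with doxycycline, but with the replicate block Hsd17b12, a reductase of fatty acid elongation, was called higher (1.19, limma adjusted p = 0.0125, against 0.0832 without the block). The medians of the log2 differences in these lists were -0.15 and -0.22. In the members, the replicate number held a median of 93.7% of the sum of squares over replicates 2 to 4 and doxycycline 2.03%, and in all transcript clusters 40.2% and 19.0%. The replicate number has more levels than doxycycline, so without any effect it holds more of the sum. It held most of the sum in 29 of 35 members. In Abca1 (96.0%), Fads2 (74.7%), Lpin1 (62.1%) and Scd2 (57.7%), doxycycline held most of it.

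Doxycycline without the Sox10 construct was examined in the GFP line, where it also induces GFP, so the drug by itself was not measured. The fit borrowed the spread of the SOX10 arrays for this line, which had 1 array per condition. There 0 members were called (0.0% of all transcript clusters in either direction), and at an unadjusted p under 0.05 in limma 0 were higher and 1 lower, Elovl7, against 3.76% and 2.52%. The largest differences were those of Elovl7, an elongase of long-chain fatty acids, from 6.34 to 5.15 (-1.19, against -0.01 ± 0.28 in the SOX10 line), of Mvk from 8.27 to 7.17 (-1.10) and of Hsd17b7 from 10.74 to 9.73 (-1.01). These 3 members fell by at least 2-fold, against 2.27% of all transcript clusters, and 0 rose by as much, against 3.66%. Elovl7 was dim, between 4.96 and 6.64 on the 10 arrays, below the median of every array. Its differences within SOX10 replicates 2, 3 and 4 were -0.82, 0.26 and 0.54. In the test of the difference between the lines, 0 members were called (0.358% of all transcript clusters were higher and 0.0259% lower), and at an unadjusted p under 0.05 1 member, Abca1, was higher and 0 were lower, against 4.81% and 4.23%. With the replicate block 0 members were called in either test, but at an unadjusted p under 0.05 the difference between the lines was higher for 5 members (Hsd17b7, Scap, Stard4, Abca1 and Lpin1) and lower for 1 (Srebf1), against 6.75% and 6.6%. For the GFP line alone the block gave 1 higher and 4 lower, against 5.64% and 4.3%. Between the untreated lines 0 members were called (0.0% of all transcript clusters in either direction), and at an unadjusted p under 0.05 2 members, Srebf1 and Abca1, were higher in the SOX10 line and 0 lower, against 1.38% and 1.95%.

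In replicate 4 taken on its own, 4 members were at least 2-fold higher with doxycycline, Stard4 (1.70), Lpin1 (1.46), Abca1 (1.47) and Elovl5 (1.03), and 0 were lower, against 4.52% and 3.5% of all transcript clusters. In replicate 2, Abca1 and Lpin1 were higher (2 of 35, against 4.39%) and 0 were lower (3.62%), and in replicate 3 the same 2 genes were higher (4.67%) while Pmvk was lower (3.34%). Across replicates 2 to 4, 12 members were higher in each and 9 lower in each, against 18.7% and 22.3% of all transcript clusters. In replicate 1 the 3 members at least 2-fold lower on the array labelled +dox were Abca1, Elovl1 and Lpin1 (5.53% of all transcript clusters), and 0 were higher (4.77%).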

How the data were processed

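RNA of 10 cultures was measured on Clariom S arrays from 100 ng of total RNA. Values are log2 signals of probe sets as deposited, which the authors had made with the Transcriptome Analysis Console. Summarization, normalization and genome build are not given in the sources used here. Of 24834 probe sets, 1646 controls were left out. Groups came from the sample labels. The methods describe 4 independent experiments, not all of which entered the main fit. Without the replicate block, p-values measure the spread between arrays of the same SOX10 group. With the block, they measure the spread left after differences between replicate numbers are removed. The GFP line adds no spread of its own, so tests that include it rest on the spread of the SOX10 arrays.

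One linear model over 4 groups (3, 3, 1 and 1 arrays), without replicate 1 of both SOX10 groups, was fitted with limma 3.58.1 in R 4.3.3 and tested on simulated data. The simulated arrays varied independently, with no effect shared by same-numbered arrays, so they did not check the fit where arrays are paired. A call needed a Benjamini-Hochberg adjusted p under 0.05 over 23188 transcript clusters and at least 2-fold. The methods' threshold of 0.01 was an alternative. Errors of differences are standard errors. Same-numbered arrays deviated together from their group means (r = 0.194, 0.15 and 0.411 for replicates 2, 3 and 4), but replicates 2 and 3 also correlated crosswise (0.171 and 0.13). The replicate block took the numbers to pair the arrays by independent experiment, and the main fit had no term for pairing. The members, roles, gene lists and the choice to leave out replicate 1 were made with earlier results of these data known. Genes given in full were those called, the 3 of each role with the lowest adjusted p-values, and those with the 3 largest differences in replicate 4 and in the GFP line. Other genes are named for the pattern of replicate 4, chosen after their values were seen. Lists of 8 cell types were also examined: macrophage markers had 1 called lower (Cd14), and fibroblast, smooth muscle, neuronal, epithelial, endothelial and adipocyte markers had 0 without the replicate block. Promoters came from RefSeq, build GRCr8.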

Additional observations from a re-analysis of the deposited data

Results flagged for a closer look

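In groups of 4 arrays, the highest or lowest array was examined for its distance from the others. Of 70 pairs of member and SOX10 group, 7 had an array far from the rest. The share over all transcript clusters was not computed, so whether 7 is many was not tested. Each group of 4 includes its replicate 1 array, on which Sox10 was opposite to the label. The arrays of replicate 4 were lowest in 6 of these: Idi1 at 12.08, Fasn at 10.57 and Scd at 13.68 without doxycycline, and Lss at 11.26, Dhcr7 at 9.13 and Fasn at 10.09 with it. The other was Abca1 at 8.88 on the replicate 1 array labelled SOX10 -dox, on which Sox10 was also high. Genes share arrays, so these are not separate events.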

How the results depend on the processing

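Abca1 was called in every alternative without replicate 1, with differences of 1.44 to 1.69 when 1 array was left out and adjusted p up to 0.0181. It was not called with all 8 SOX10 arrays as labelled (0.63), where the members called higher fell to 0 and all transcript clusters called to 0. The members called higher were 2 with the replicate block, without replicate 4 of both groups, with array weights, with the block and quantile normalization, and with the block without replicate 4, the last 2 chosen after the data were seen. They ranged from 1 to 2 when 1 array was left out, with 2 without SOX10 +dox replicate 4. The added member was Lpin1 (adjusted p = 0.0338 without replicate 4, 0.0305 with array weights, 0.0324 without SOX10 +dox replicate 4, 0.00314 with block and quantile normalization, 0.0344 with the block without replicate 4). The replicate block changed no other member's call. On leaving out 1 array, the sign of these uncalled members turned, with the ranges Pmvk -0.75 to 0.06, Idi1 -0.07 to 1.05, Msmo1 -0.17 to 1.23, Hsd17b7 -0.84 to 0.80, Sc5d -0.77 to 0.33, Dhcr7 -1.26 to 0.20, Acaca -0.32 to 0.46, Acly -0.20 to 1.02 and Elovl7 -0.23 to 0.29. Without replicate 4 of both groups, with or without the block, Hsd17b7 (-0.13) and Acaca (-0.02) turned as well. The cause was not tested. The median of all members ran from -0.45 without SOX10 -dox replicate 4 to 0.63 without SOX10 +dox replicate 4. Over all transcript clusters, 525 higher and 287 lower became 308 and 113 at an adjusted p under 0.01, and 333 and 140 at the lowest when 1 array was left out. No member had a second transcript cluster, so that alternative gave no value. With 3 arrays per SOX10 group and 1 per GFP condition, precision depends on whether the replicate numbers pair the arrays.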
